A study of Sus scrofa with 32 samples.

Results

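The apolipoproteins APOA1, APOA4, APOC3, APOE and APOM were followed in the fetal liver of the pig. These 5 were chosen by name, with earlier results of these data known. They were found by matching the transcript accession of each array probe (NM_214398, NM_214388, NM_001002801, NM_214308 and NM_001040640) to the pig annotation. They are 5 of 1596 named genes and 28673 features tested. Each of the 5 had 1 probe with 1 spot, so no other probe could serve as a check. All 5 probes were well above background on all 32 arrays and none was saturated. Runts were compared with control fetuses at gestational days 37, 50, 70 and 110, with 4 livers in each of the 8 groups. All fetuses, controls included, came from artificially inseminated gilts that had lost 1 uterine horn and 1 ovary by surgery, so that the remaining horn was overcrowded, and runts were the growth-restricted fetuses of that uterus. Per the labels, each day drew on 4 gilts and the 4 runt and 4 control livers were littermate pairs, which the replicate numbers are not stated to match. RNA of whole liver was hybridised to 1-colour arrays, so fewer hepatocytes and less RNA per hepatocyte cannot be told apart.

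Apolipoproteins are the protein part of lipoproteins, the particles that carry lipid in plasma. APOA1 is the main protein of high-density lipoprotein and activates the enzyme that esterifies its cholesterol. APOM rides on the same particles and carries sphingosine-1-phosphate, and APOC3 slows the clearance of triglyceride-rich particles and inhibits lipoprotein lipase. APOE is the ligand by which remnant particles are taken up through the LDL receptor family. APOA4 is made mostly by the small intestine in adult mammals, with liver as a lesser source. In the pig annotation Sscrofa11.1, APOA4, APOC3 and APOA1 are consecutive genes on chromosome 9, with APOA5 nearby. APOE lies on chromosome 6 beside APOC4 and APOC2, and APOM on chromosome 7 next to BAG6.

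A level here is the log2 of a spot's processed signal minus the log2 of the 75th percentile of its array, so that 0 is the signal at that percentile and 1 unit is a 2-fold difference. Levels of different probes cannot be set against each other. Per array, 51.3% to 69.4% of spots passed the scanner software's well-above-background call, and the 75th percentile lay between 177 and 460 intensity units. All 10 measured hepatocyte secretory markers were above background on all 32 arrays. Arrays of 1 day shared a position on their slides, apart from 1 day 50 runt array alone on a ninth slide, so day and position cannot be told apart. The lone array was also the only array scanned on another date. Differences were tested with limma on all 32 arrays, two-sided, with Benjamini-Hochberg adjustment over all 28673 features. The threshold was an adjusted p of 0.05, and comparisons of days also required a 2-fold change for a gene to pass. The 4 arrays of a group limit the precision of every value. Where groups are said below not to overlap, the share of all features without overlap was not counted.

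Over the course from day 37 to day 110 APOC3 and APOA4 rose in both fetus types, APOE rose in controls, and APOA1 and APOM did not pass in either. In runts 2 of 5 passed, where 27.1% of all features did. In controls 3 of 5 passed, where 29.3% of all features did. The median change of the 5 was 0.92 in runts and 1.22 in controls (log2), against a median over all features of 0.04 in runts and -0.02 in controls. Since the 5 were chosen with earlier results of these data known, these comparisons with all features are descriptions only.

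**Figure D1:**
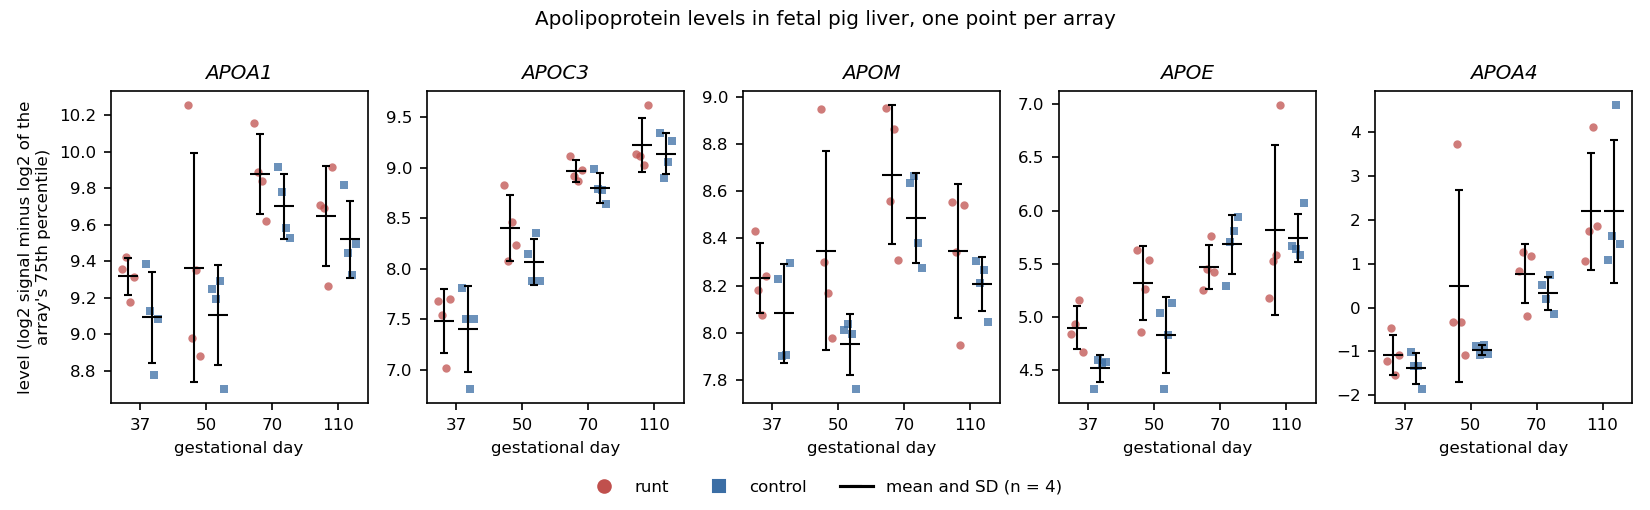
Levels of the 5 apolipoproteins by gestational day, with 1 point per array, runts (circles) left of controls (squares), and bars for the mean and SD of 4 arrays. The mean of APOC3 is higher at each successive day in both fetus types, APOA1 and APOM have their highest means at day 70 at this scaling (after quantile normalization, which sets values by rank, APOA1 has it at day 110), and single arrays stand far above their group in APOA4 at days 50 and 110 and in APOE at day 110.

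APOC3, the inhibitor of triglyceride clearance, had the smallest p of the 5. Its level in runts was 9.13, 9.12, 9.03 and 9.62 at day 110, against 7.68, 7.54, 7.02 and 7.70 at day 37. Controls read 9.34, 8.89, 9.05 and 9.27 at day 110, against 7.81, 7.50, 6.81 and 7.50 at day 37. In both fetus types every day 110 array lay above every day 37 array, though the share of all features that separate so was not counted. The change was 1.74 in runts (SE 0.19, 3.34-fold, 95% CI 2.54 to 4.40, adjusted p = 2.28e-08) and 1.73 in controls (SE 0.19, 3.32-fold, 95% CI 2.53 to 4.37, adjusted p = 2.40e-08). Within slides 4 to 9 it was 1.52 in runts and 1.72 in controls, and both passed. Within slides 1 to 3 it was 1.96 in runts, which passed, and 1.76 in controls, where each day had 1 array, so that value is a difference of 2 arrays with no replicate check of its own.

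Most of the rise of APOC3 lay before day 70. Its mean level in runts was 7.48 ± 0.32, 8.40 ± 0.33, 8.97 ± 0.11 and 9.22 ± 0.27 at days 37, 50, 70 and 110 (SD, n = 4 each). Controls averaged 7.40 ± 0.42, 8.07 ± 0.23, 8.80 ± 0.14 and 9.14 ± 0.20 at the same days. At day 50 it was above day 37 by 0.92 in runts (adjusted p = 0.00234) and 0.66 in controls (adjusted p = 0.0346), and at day 70 it was above day 50 by 0.56 in runts (adjusted p = 0.0321) and 0.73 in controls (adjusted p = 0.00756). Each of these 4 steps was under 2-fold, and the groups did not overlap in any of them. How many of all features lack overlap in these steps was not counted. From day 70 to 110 the difference of 0.26 in runts (adjusted p = 0.367) and 0.34 in controls (adjusted p = 0.21) did not pass. The order of the 8 group means, low to high, was that of the days, with controls below runts within each day. The pair of day 37 means differed by less than the larger SD, as did day 70 runts from day 110 controls and these from day 110 runts. With the 3 arrays described below left out, the step to day 50 in runts passed at 1.03 (adjusted p = 0.00376).

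APOA4 had the largest change and the widest spread. In runts it read 1.06, 1.74, 4.11 and 1.86 at day 110, against -1.22, -0.47, -1.55 and -1.09 at day 37. In controls it read 1.08, 1.62, 4.61 and 1.45 at day 110, against -1.01, -1.33, -1.34 and -1.86 at day 37. No day 110 array reached down to a day 37 array in either fetus type, a separation not counted over all features. Replicate 3 stood far above the other 3 in both day 110 groups. The change was 3.27 in runts (SE 0.76, 9.68-fold, 95% CI 3.29 to 28.4, adjusted p = 7.28e-04) and 3.58 in controls (SE 0.76, 11.9-fold, 95% CI 4.06 to 35.0, adjusted p = 2.70e-04). Without day 110 runt replicate 3 the change in runts was 2.64 (adjusted p = 0.00601), and without day 110 control replicate 3 that in controls was 2.77 (adjusted p = 0.00233). Within slides 1 to 3 the change of APOA4 was 4.30 in runts (adjusted p = 0.00675) and 3.31 in controls (adjusted p = 0.0655), where the 1 control array of each day was assumed to vary like the other groups. Within slides 4 to 9 it was 2.25 in runts (adjusted p = 0.152) and 3.66 in controls (adjusted p = 0.00568).

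Another array stood apart in APOA4, at day 50. The runts of that day read -0.32, 3.72, -0.34 and -1.09, against -0.87, -1.09, -0.86 and -1.06 in controls. Replicate 2 of the runts lay 4.31 above the mean of the other 3, while replicate 4 was level with the lowest controls and the remaining pair lay above all controls. At day 70 the level ran from -0.19 to 1.26 in runts and from -0.14 to 0.74 in controls. In the order of the 8 group means, the day 37 groups and day 50 controls lay lowest, apart from the next by more than the larger SD, and the other neighbours differed by less. With the 3 high arrays left out together, a choice made after they were seen, the SE of the APOA4 change over the course was 0.31, against 0.76 with all arrays. The change over the whole course was then 2.64 in runts (adjusted p = 2.06e-07) and 2.77 in controls (adjusted p = 8.88e-08). Without them the step from day 50 to 70 also passed, by 1.36 in runts (adjusted p = 0.00375) and 1.30 in controls (adjusted p = 0.00266), as did the step from day 70 to 110 in controls (1.06, adjusted p = 0.0149).

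On the 3 arrays high in APOA4 the markers of gut and kidney epithelium were high on some and low on others. CDH17, the cadherin of liver and intestine, read 1.74 on day 110 runt replicate 3 (-0.29 to 0.61 on the other 3) and 2.05 on day 110 control replicate 3 (0.32 to 0.75 on the other 3). On day 50 runt replicate 2 it was at -1.87, below the other 3 (-1.31 to -0.13). FABP1, the liver fatty acid binding protein that gut also makes, was below the other 3 on both runt arrays and within their range on the control array. Leaving aside the assembly gene MTTP, of the 6 measured gut and kidney markers 0 were above all others of their group on day 50 runt replicate 2, 2 on day 110 runt replicate 3 and 3 on day 110 control replicate 3. The numbers below all others were 4, 2 and 1 on the same arrays. The control array was also above the other 3 in 4 of 4 erythroid and 6 of 6 cell cycle markers, by a median of 1.39 and 1.26 (log2). On the runt arrays those counts were 0 of 4 and 0 of 6. On day 110 runt replicate 3, 6 of 9 hepatocyte secretory markers (VTN aside) lay below the other 3, with a median of -0.50 over the 9, as did 4 of 8 bile duct and stellate cell markers. On day 50 runt replicate 2, 4 of those 9 hepatocyte markers and 6 of 9 Kupffer cell and macrophage markers lay below the other 3. So did 4 of 5 genes of lipoprotein assembly (MTTP aside), 3 of 5 other apolipoproteins and 3 of 5 receptor genes there. Fewer did in the erythroid (1 of 4), bile duct and stellate cell (1 of 8) and cell cycle lists (1 of 6). On day 110 runt replicate 3, 3 of 3 plasma remodelling genes but 1 of 5 receptor genes also lay below. Every gene is lowest on 1 of the 4 arrays of its group, and the share over all features on these arrays was not counted. The counts above and below the other 3 can therefore not be read as a trait of these lists. Over all features, APOA4 ranked 13, 51 and 21 by excess over the other 3 on day 50 runt replicate 2, day 110 runt replicate 3 and day 110 control replicate 3. Summed gut and kidney signal per array was 80.2 to 126 in runts and 110 to 161 in controls at day 50, and 89.7 to 142 in runts and 87.3 to 208 in controls at day 110. These sums add the unlogged values of all 7 markers, MTTP included. FABP1, ANPEP and MTTP, with the highest levels, weigh most in them. The sums are thus no separate measure of gut or kidney cells. The part of other cells in the APOA4 signal was not tested.

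**Figure D2:**
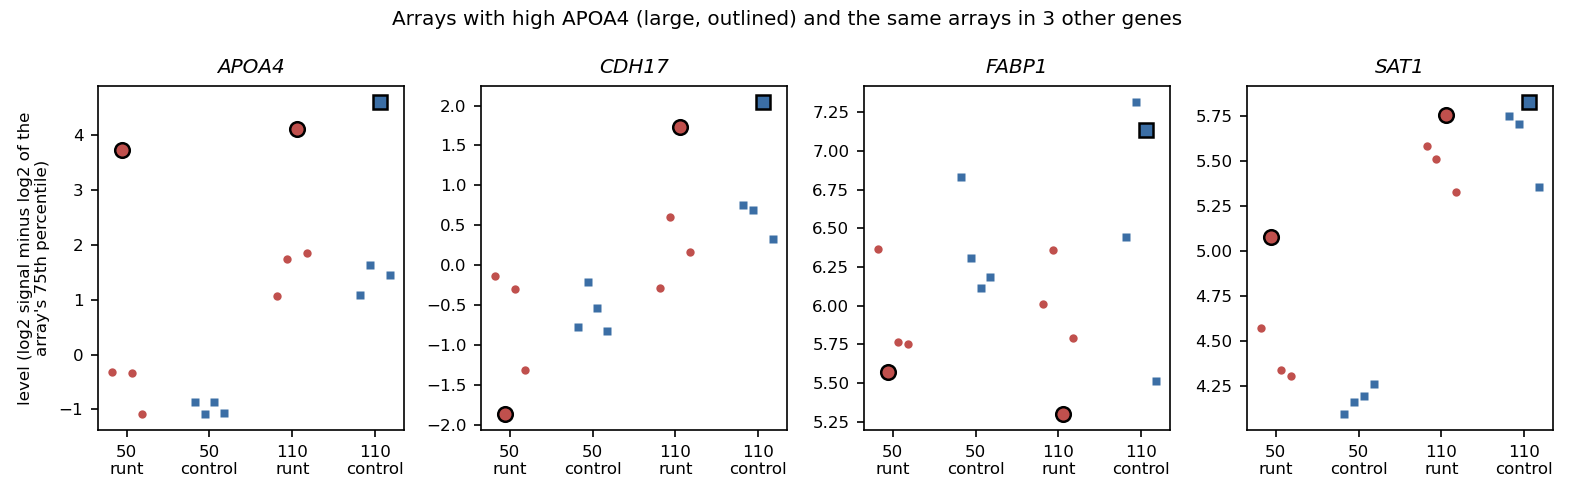
Levels of APOA4, CDH17, FABP1 and SAT1 on the arrays of days 50 and 110, runts (circles) left of controls (squares), with the 3 arrays high in APOA4 drawn large and outlined. CDH17 is high on the outlined arrays of day 110 (1.74 and 2.05) and lowest on that of day 50 (-1.87), while SAT1, chosen for its correlation with APOA4 over all arrays, is the highest of its group on all 3.

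APOE, the ligand for receptor uptake, passed in controls. Runts had levels of 5.18, 5.53, 5.59 and 6.99 at day 110, against 4.84, 4.93, 5.16 and 4.68 at day 37. Controls had levels of 5.67, 5.64, 5.59 and 6.07 at day 110, against 4.32, 4.60, 4.57 and 4.58 at day 37. The days did not overlap in either fetus type, again without a count over all features, and the lowest day 110 runt lay only just above the highest day 37 runt. The change was 0.92 in runts (SE 0.26, 1.89-fold, 95% CI 1.31 to 2.74, adjusted p = 0.00435), under the 2-fold threshold. In controls it was 1.22 (SE 0.26, 2.33-fold, 95% CI 1.61 to 3.38, adjusted p = 2.74e-04). Without day 110 runt replicate 4, the array at 6.99, the runt change was 0.53 (adjusted p = 0.0312). It moved past 2-fold when day 37 runt replicate 3 (1.00, adjusted p = 0.00482), day 110 runt replicate 1 (1.13, adjusted p = 8.91e-04) or day 110 runt replicate 2 (1.02, adjusted p = 0.00408) was left out. Within slides 1 to 3 the change of APOE was 1.37 in runts (adjusted p = 0.0648) and 1.49 in controls (adjusted p = 0.151), the control value again from 1 array a day assumed to vary like the other groups. Within slides 4 to 9 it was 0.47 in runts (adjusted p = 0.199) and 1.13 in controls (adjusted p = 7.34e-04). The change in runts minus that in controls was -0.30 (SE 0.37, adjusted p = 1.00).

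By day, the mean level of APOE was 4.90 ± 0.20, 5.32 ± 0.35, 5.47 ± 0.21 and 5.82 ± 0.80 in runts and 4.52 ± 0.13, 4.83 ± 0.36, 5.68 ± 0.28 and 5.74 ± 0.22 in controls at days 37, 50, 70 and 110. The step from day 50 to 70 was 0.15 in runts (adjusted p = 0.711) and 0.85 in controls (SE 0.26, 1.80-fold, adjusted p = 0.0183), without overlap between the control groups. At day 37 every runt lay above every control, and at day 70 the runt mean lay below the control mean, without a difference that passed at either day. In the order of the 8 means, the day 37 groups and day 50 controls lay lowest, apart from the rest by more than the larger SD, and no other neighbours differed by that much. Whether the step itself differed between runts and controls was covered only by the test of the runt effect among the 4 days, given below.

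The level of APOE was lower on brighter arrays. Over the 32 arrays its deviation from the group mean correlated with the deviation of the array's log2 75th percentile signal at r = -0.79, and at -0.70 without the 2 arrays farthest from the median. The level subtracts that same log2 75th percentile, so at this scaling part of the correlation can be built in. The correlation was -0.76 after quantile normalization and also in the authors' deposited log2 table. For the other 4 genes the same correlation lay between -0.22 and 0.20 at the 75th percentile scaling. After quantile normalization it was -0.54 for APOM, -0.48 for APOA1, -0.40 for APOC3 and 0.20 for APOA4, and in the deposited table -0.53, -0.47, -0.41 and 0.20 in the same order. Day 110 runt replicate 4, the highest array in APOE, was the dimmest of all, with a 75th percentile of 177 against 360 to 460 in the other 3 day 110 runts. With the array's signal as a covariate, added after this was seen, the change over the course was 0.93 in runts (SE 0.17, adjusted p = 4.77e-05) and 1.33 in controls (SE 0.17, adjusted p = 3.08e-07). The 75th percentile was 177 to 366 on slides 1 to 3 and 253 to 460 on slides 4 to 9, so brightness and slide set could not be fully told apart.

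**Figure D3:**
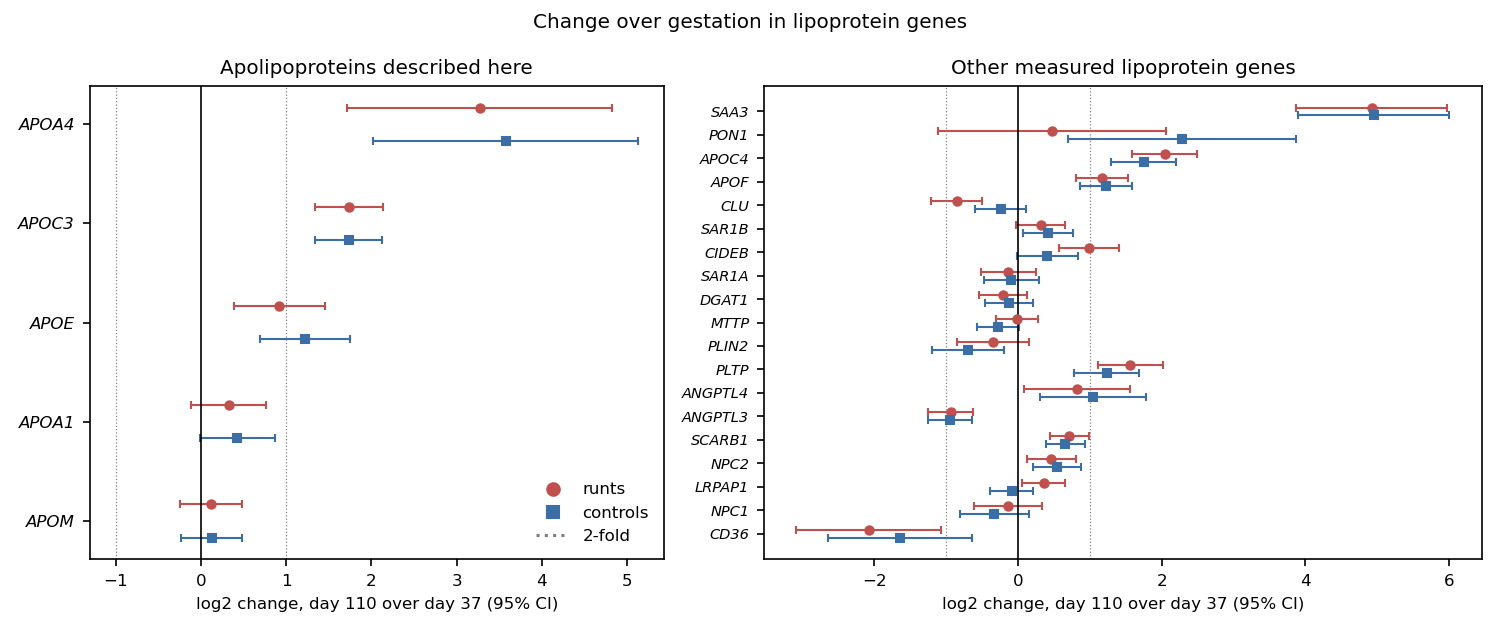
Log2 change from day 37 to day 110 with its 95% confidence interval in runts (circles, upper) and controls (squares, lower), for the 5 apolipoproteins on the left and for the other measured genes of 4 lipoprotein lists on the right. APOA4, APOC3 and, in controls, APOE lie past the dotted 2-fold line, as do SAA3, APOC4, APOF and PLTP in both fetus types and PON1 and ANGPTL4 in controls, while CD36 lies past it on the lower side in both.

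APOA1 and APOM, both carried on high-density lipoprotein, did not pass over the course. APOA1 ranged from 9.26 to 9.92 in runts and from 9.33 to 9.82 in controls at day 110, against 9.18 to 9.42 in runts and 8.78 to 9.38 in controls at day 37. The change was 0.33 in runts (SE 0.21, 95% CI -0.11 to 0.77, adjusted p = 0.21) and 0.43 in controls (SE 0.21, 95% CI -0.01 to 0.87, adjusted p = 0.0956). Over 15 alternative settings the APOA1 change ran from 0.25 to 0.58 in runts and from 0.41 to 0.50 in controls. It was thus a rise under 2-fold in each. Its adjusted p in limma depended on the setting, with a lowest value of 9.64e-04 in runts and 2.10e-04 in controls. The number of settings with so low a value was not counted. APOM ranged from 7.95 to 8.55 in runts and from 8.05 to 8.30 in controls at day 110, against 8.08 to 8.43 in runts and 7.90 to 8.29 in controls at day 37. Its change was 0.12 in runts (SE 0.18, 95% CI -0.25 to 0.48, adjusted p = 0.614) and 0.13 in controls (SE 0.18, 95% CI -0.24 to 0.49, adjusted p = 0.571). For both genes the days overlapped, and the upper bounds of the intervals lay under a 2-fold rise.

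Both genes had their highest means at day 70 at the 75th percentile scaling, but after quantile normalization APOA1 was higher at day 110 than at day 70, by 0.07 in runts and 0.10 in controls. Quantile normalization sets values by rank, which says little about the level of so bright a probe. At day 110 the quantile-normalized deviation of APOA1 from its group mean was -0.044 on replicates 1 and 2 and 0.044 on replicates 3 and 4, in runts and controls alike. The day 70 controls read 9.91, 9.78, 9.58 and 9.53 in APOA1, against 9.25, 9.19, 9.29 and 8.70 at day 50. In APOM they read 8.63, 8.66, 8.38 and 8.27, against 8.01, 8.04, 7.99 and 7.76 at day 50. The control groups did not overlap in either gene, with no share of all features to set beside it. The difference was 0.59 in APOA1 (SE 0.21, 1.51-fold, adjusted p = 0.0438) and 0.54 in APOM (SE 0.18, 1.45-fold, adjusted p = 0.0277), both under 2-fold. After quantile normalization these were 0.49 in APOA1 (adjusted p = 9.47e-04), with the limit just given, and 0.34 in APOM (adjusted p = 0.057). In runts the same step was 0.51 in APOA1 (adjusted p = 0.0804) and 0.32 in APOM (adjusted p = 0.186), and there the groups overlapped through day 50 replicate 1, the lone array of the ninth slide, at 10.25 in APOA1 and 8.95 in APOM. Day 110 minus day 70 was -0.23 in runts and -0.18 in controls for APOA1, and -0.32 in runts and -0.28 in controls for APOM, and none of these passed. In the order of the 8 group means, no 2 neighbours of either gene differed by more than the larger SD.

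Between successive days 0 of the 5 genes passed both thresholds in any of the 6 steps in limma. The number at an unadjusted p under 0.05 was 2, 2 and 0 in runts, where 29.7%, 37.0% and 35.1% of all features were, and 1, 4 and 1 in controls, where 22.6%, 38.1% and 37.1% were. In runts the share of all features that passed was 5.83%, 7.98% and 11.1% from day 37 to 50, 50 to 70 and 70 to 110, and in controls it was 3.42%, 7.66% and 12.4%. From day 50 to 70 in controls 4 of 5 had an adjusted p under 0.05, all of them higher at day 70 and under 2-fold, and the fifth, APOA4, was at 1.30 (SE 0.76, adjusted p = 0.211). That count leaves out the 2-fold threshold, so the 7.66% is not its match. The matching share of all features was not counted and lies between the 7.66% and the 38.1%. When arrays were scaled to their median, APOE passed in that step at 1.04 (adjusted p = 0.0086). That scaling put the median of all features at 0.14, against -0.05 at the 75th percentile, and 66.4% of called features were then higher at day 70, against 37.8%.

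No difference between runts and controls passed in any of the 5 genes. In the mean over the 4 days 0 of 5 passed in limma, where 0.248% of all features did (71, and 189 with the replicate number as a block within each day), and 1 of 5, APOM, had an unadjusted p under 0.05, where 9.09% of all features did. With that block too, 0 of 5 passed. All 5 lay above 0 in that mean, where 50.4% of all features did. They were at 0.20 for APOA1 (SE 0.11), 0.17 for APOC3 (SE 0.10), 0.22 for APOM (SE 0.09), 0.19 for APOE (SE 0.13) and 0.55 for APOA4 (SE 0.38). The 5 signs are not independent, since at this scaling APOA1 deviated together with APOM (r = 0.81) and with APOC3 (r = 0.74). The adjusted p ran from 0.405 to 0.741. The intervals of APOA1, APOC3, APOM and APOE reached at most 0.45, so a mean difference as large as 2-fold lay outside them, while that of APOA4 ran from -0.22 to 1.33. For APOA1, APOC3, APOM and APOE the sign was kept in 14 of 15 alternative settings and turned in 1, the normexp background correction. That setting called 13899 features in this mean, against 71. With the normexp model, which fits background and signal together, APOA1 was at -0.14, APOC3 at -0.14, APOM at -0.07 and APOE at -0.14, and the median of all features was 0.19.

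**Figure D4:**
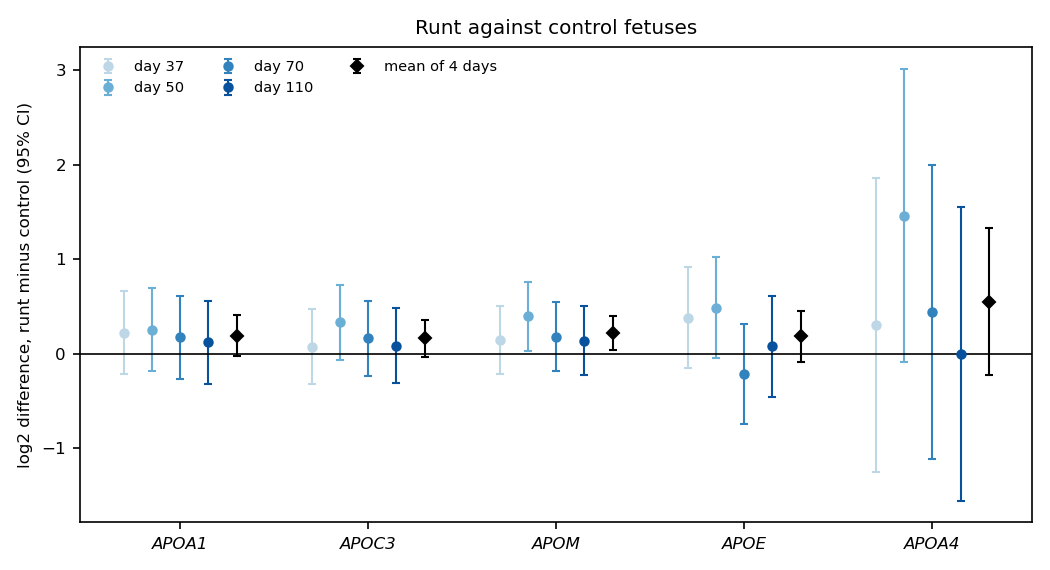
Log2 difference of runts minus controls at each day and in the mean of the 4 days, with 95% confidence intervals from the fit over 32 arrays. All intervals cross 0 except those of APOM at day 50 (0.40) and in the mean (0.22), and the intervals of APOA4 are the widest.

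At single days 0 of 5 passed as well, where 0%, 0.0663%, 0% and 0.014% of all features passed at days 37, 50, 70 and 110. The number of genes above 0 was 5, 5, 4 and 5 of 5, where 47.9%, 46.7%, 55.0% and 56.4% of all features were. The exception was APOE at day 70, at -0.21. After quantile normalization the number was 5, 5, 2 and 3, and with normexp 4, 1, 1 and 5. At day 50 the median of the 5 was 0.40, against -0.02 over all features. The number at an unadjusted p under 0.05 was 0, 1 (APOM), 0 and 0 of 5 at the 4 days, where 2.53%, 7.38%, 1.82% and 4.40% of all features were. That day APOM read 8.95, 8.30, 8.17 and 7.98 in runts, against 8.01, 8.04, 7.99 and 7.76 in controls. Replicate 1 of the runts was far above the rest and replicate 4 lay within the controls. The difference was 0.40 (SE 0.18, adjusted p = 0.612), and 0.20 without day 50 runt replicate 1. APOA4 differed by 1.46 (SE 0.76, adjusted p = 0.70), and by 0.39 without day 50 runt replicate 2. APOA1 differed by 0.26 (SE 0.21, adjusted p = 0.857), and by -0.04 without day 50 runt replicate 1. In the test of the course in runts minus that in controls 0 of 5 passed, where 0% of all features did, with an adjusted p of 1.00 for each. In the F-test of the runt effect among the 4 days 0 of 5 passed, where 0.00349% of all features did, also with an adjusted p of 1.00 for each. In both tests 0 of 5 had an unadjusted p under 0.05.

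The hepatocyte product ALB, serum albumin, was measured on the same arrays. It was lower in runts by 1.53 in the mean of the 4 days (adjusted p = 0.0223), with means of 3.68 ± 1.54 in runts and 6.22 ± 0.66 in controls at day 37 and of 4.85 ± 1.11 in runts and 7.57 ± 0.41 in controls at day 50. The gap was smaller later, with 7.28 ± 0.82 in runts and 7.65 ± 0.81 in controls at day 70. At day 110 the means were 7.10 ± 0.50 in runts and 7.60 ± 0.52 in controls. ALB was the 1 of 10 hepatocyte secretory markers that passed in the mean of the 4 days. Of the 10, 8 lay above 0, where 50.4% of all features did, with a median of 0.12 against 0.00 over all features. SAA3, an acute phase protein carried on high-density lipoprotein, was the 1 of 5 measured other apolipoproteins that passed, lower in runts by 1.28 (SE 0.26, adjusted p = 0.0244). Its means were -2.31 ± 0.78 in runts and -0.31 ± 0.42 in controls at day 50. Whether these genes differed from the 5 apolipoproteins in the runt effect was not tested.

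Other genes of lipoprotein biology were read from lists. Over the course, 4250 of all 28673 features passed as higher and 3510 as lower at day 110 in runts. In controls those numbers were 4307 and 4094. Of the 5 measured other apolipoproteins and associated plasma proteins, 3 rose from day 37 to 110 in runts, 4 rose in controls and 0 fell in either. In controls they were SAA3 (4.95, adjusted p = 6.69e-09), PON1, the paraoxonase of high-density lipoprotein (2.29, adjusted p = 0.0146), APOC4, the neighbour of APOE (1.75, adjusted p = 1.93e-07), and APOF (1.23, adjusted p = 1.55e-06). PON1 was above background on only 3 of the 4 day 37 control arrays. CLU, clusterin, was at -0.86 in runts (adjusted p = 1.69e-04), under 2-fold, and -0.24 in controls (adjusted p = 0.242). The median of the 5 was 1.17 in runts and 1.75 in controls, and in runts PON1 was at 0.47 (adjusted p = 0.642). APOC4 averaged 5.95 ± 0.20 in runts and 6.65 ± 0.17 in controls at day 50, a difference of -0.69 (adjusted p = 0.317), where APOE, the gene beside it, was at 0.49 (adjusted p = 0.711).

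The 6 measured genes of lipoprotein assembly and secretion did not pass in either fetus type, with a median of -0.07 in runts and -0.11 in controls. Among them MTTP, which loads lipid onto the nascent particle, was at -0.01 in runts (adjusted p = 0.955) and -0.28 in controls (adjusted p = 0.103). Of 3 plasma remodelling genes 1 rose in runts, PLTP, the phospholipid transfer protein (1.56, adjusted p = 1.42e-06), and ANGPTL4, an inhibitor of lipoprotein lipase, was at 0.82 there (adjusted p = 0.0606). In controls both rose, PLTP by 1.23 (adjusted p = 3.88e-05) and ANGPTL4 by 1.04 (adjusted p = 0.017). Of 5 receptor genes 1 fell, CD36, a scavenger receptor and fatty acid transporter (-2.08 in runts, adjusted p = 8.48e-04, and -1.65 in controls, adjusted p = 0.00598).

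Among 10 measured regulators of apolipoprotein genes 6 rose in each fetus type and 0 fell, where 4250 of 28673 features rose in runts and 4307 in controls. The 3 largest rises in controls were in PPARGC1A, a coactivator of nuclear receptors (1.81, adjusted p = 2.38e-09), NR3C1, the glucocorticoid receptor (1.68, adjusted p = 2.35e-09), and PROX1, a homeobox factor of hepatoblasts (1.54, adjusted p = 6.26e-09). Their median was 1.09 in runts and 1.13 in controls. Over the same course all 4 erythroid and all 6 cell cycle markers fell, with a median of -4.58 and -3.91 in runts and of -4.08 and -3.58 in controls. Summed erythroid signal per array, relative to the 75th percentile, was 1.79 to 7.53 in runts and 2.72 to 13.5 in controls at day 110, against 94.1 to 123 in runts and 86.8 to 149 in controls at day 37. Of the 10 hepatocyte secretory markers 2 rose in each fetus type and 0 fell. ALB rose by 3.42 in runts (adjusted p = 2.27e-05) and 1.39 in controls (adjusted p = 0.0488), and VTN by 1.56 in runts (adjusted p = 1.83e-09) and 1.68 in controls (adjusted p = 4.86e-10). The part of these marker shifts in the apolipoprotein changes was not tested.

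The genes most like each apolipoprotein over the 32 arrays were taken as the 3 with the highest Pearson correlation among 1574 named genes. These are descriptions over arrays that share slides, days and scaling. APOC3 was most like VTN, vitronectin (r = 0.95), IGFBP2, a binding protein of insulin-like growth factors (0.95), and FUT1, a fucosyltransferase (0.94). APOE was most like NR1H3, the liver X receptor alpha (0.85), MMP14, a membrane metalloproteinase (0.83), and MEF2A (0.83). APOA4 was most like SAT1, the enzyme that acetylates spermidine and spermine (0.83), GDF9 (0.83) and LCLAT1, a lysocardiolipin acyltransferase (0.81). The 3 arrays high in APOA4 are among those that chose these genes. SAT1 and LCLAT1 were the highest of their group on each of the 3, and GDF9 on the runt arrays but not on day 110 control replicate 3 (-0.56, where the highest of the others was at -0.52).

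APOA1 and APOM were both most like the ribosomal protein genes RPS28 (r = 0.88 and 0.84) and RPL29 (0.86 and 0.83). Next came the elongation factor EEF1A1 (0.84) for APOA1 and RPL10 (0.82) for APOM. This likeness depended on the scaling: after quantile normalization the correlation with RPS28 was 0.71 for APOA1 and 0.28 for APOM. With group means removed, APOA1 and APOM deviated together at r = 0.81 over 32 arrays, and at 0.32 after quantile normalization, 0.30 in the deposited table and 0.70 without the lone array of the ninth slide. APOA1 and APOC3 deviated together at 0.74, and at 0.54 after quantile normalization. The quantile-normalized values of APOA1 are set by rank, as described above, which limits all its correlations at that scaling. The deviations of APOE and APOA4 correlated with those of the other members between -0.31 and 0.21 over all 32 arrays. By fetus type APOE with APOM was at 0.17 in runts and -0.61 in controls, and APOE with APOA1 at 0.30 in runts and -0.46 in controls. After quantile normalization APOE with APOM was at 0.31 over all arrays.

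**Figure D5:**
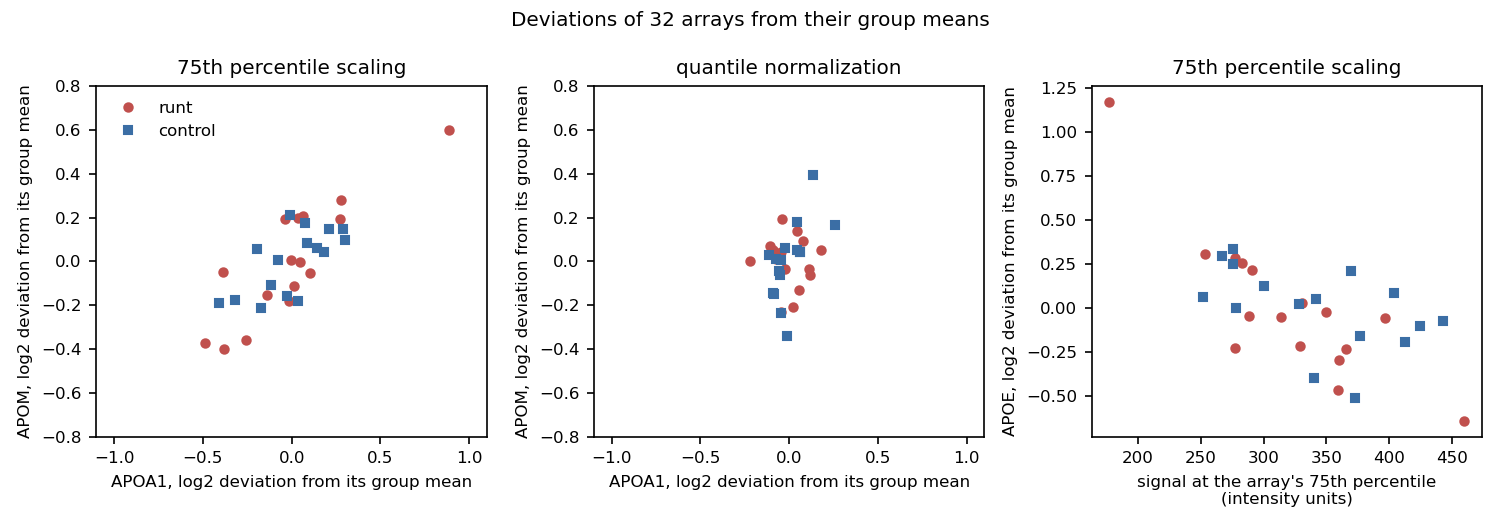
Deviations of single arrays from their group means (log2), runts as circles and controls as squares. APOM follows APOA1 at the 75th percentile scaling (left, r = 0.81) and less after quantile normalization (middle, r = 0.32), and APOE lies lower on arrays with a brighter 75th percentile (right, r = -0.79).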

How the data were processed

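Cy3-labelled liver RNA of 32 fetuses was hybridised to 1-colour Agilent arrays. Per the file headers, spots were read with Feature Extraction 10.7.3.1, and the deposited processed signal is a background-subtracted intensity. A log2 table deposited by the authors, with Partek named in the submitters' processing notes, served as an alternative. Its columns share 1 distribution, as after quantile normalization. Control spots and outlier flags were left out. Log2 processed signals were scaled to the 75th percentile of each array. Probes were named through RefSeq accessions in the annotation Sscrofa11.1, and a probe was tested when well above background on at least 3 arrays of a group. Limma 3.58.1 (R 4.3.3) fitted 8 group means with 24 residual degrees of freedom. The fit was tested on simulated data. Named genes were the 5 members, list genes passing over the control course (at most 3 rises and 3 falls per list) or in the mean runt effect, and the 3 genes most like each member. FABP1, CDH17, CLU, MTTP and the group values of APOC4 were singled out after their values were seen. The members and lists were chosen with earlier results of these data known. Alternatives were median scaling, quantile normalization, the deposited table, normexp (offset 50, on median signals where mean signals had been planned), filters, flags kept, slide and replicate blocks, slide sets, fewer groups, and each array left out. The block within each day, the deviations under other scalings, the array signal as a covariate and the joint omission of 3 arrays were chosen after seeing the data. Same-numbered runts and controls deviated together at days 37 (r = 0.13 to 0.42) and 110 (0.13 to 0.19) but not in every pair at days 50 (-0.09 to 0.42) and 70 (-0.01 to 0.31), so the numbers were not taken as pairs throughout. The labels name littermate pairs without their numbers.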

Additional observations from a re-analysis of the deposited data

Results flagged for a closer look

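In groups of 4 arrays, 6 of 40 had 1 array so far from the rest that its gap exceeded Dixon's 95% critical share of the group's range, and chance alone sets off about 1 in 20 such groups. APOA4 stood apart at 3.72 on day 50 runt replicate 2 (the others reached at most -0.32) and at 4.61 on day 110 control replicate 3 (the others reached at most 1.62). Day 110 runt replicate 3, at 4.11 in the same gene, fell short of that value because the other 3 were themselves spread. Replicate 4 of the day 50 controls was the lowest of its group in both APOA1, at 8.70 (9.19 or more in the others), and APOM, at 7.76 (7.99 or more in the others). APOE was low at 4.32 on day 37 control replicate 1 (4.57 or more in the others), an array with a 75th percentile of 413, the brightest of its group. It was high at 6.07 on day 110 control replicate 4 (at most 5.67 in the others), an array with a 75th percentile of 276, the dimmest of its group.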

How the results depend on the processing

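Among the alternatives that kept all arrays or whole slide sets, the changes of APOC3 from day 37 to 110 passed in both fetus types under each, though in controls within slides 1 to 3 as 1 array a day, assumed to vary like the other groups, as for the next values. Within slides 1 to 3 the control changes of APOA4 (3.31) and APOE (1.49) no longer passed, and APOM turned to -0.25. Within slides 4 to 9 the runt change of APOA4 (2.25, adjusted p = 0.152) no longer passed. These sets hold fewer arrays, and the share of all features passing over the course in them is not given here. With normexp the runt change of APOE over the course passed at 1.25 (adjusted p = 0.0108). The change of APOM from day 37 to 110 in runts turned to -0.018 after quantile normalization and in the deposited table. In the mean runt effect normexp turned APOA1 to -0.14, APOC3 to -0.14, APOE to -0.14 and APOM to -0.067, and at day 50 it turned APOM to -0.29, while within slides 1 to 3 APOA4 at day 50 turned to -0.13. The cause was not tested. With the replicate number as a block (replicate block), APOE in controls was still at 1.22 (adjusted p = 1.23e-04), and neither that block nor one within each day changed a member's call, though the mean runt effect then had 135 and 189 features passing. Leaving out each array in turn, the runt change of APOE ran from 0.53 to 1.13. The number of all features passing over the course was 7760 in runts, from 3637 (normexp) to 8320 (no filter), and 8401 in controls, from 4019 (normexp) to 8767 (no filter). For the mean runt effect it was 71, from 0 within slides 1 to 3 to 13899 with normexp, which moved the median of all features by 0.19. For the steps between successive days normexp gave 80, 441 and 1543 features in controls, against 980, 2196 and 3560, and within slides 1 to 3 the steps to day 50 and to day 70 had at most 1. At day 50 the runt effect had 17058 features with normexp, against 19. The alternative of other probes gave no value, since each member had 1 probe. Signals of all 5 probes lay well above background on all arrays.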

Other observations

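Markers of other liver cells were counted over the same course from day 37 to 110. Of all 28673 features 4250 rose and 3510 fell in runts, and 4307 rose and 4094 fell in controls. Of 9 measured Kupffer cell and macrophage markers 4 rose in runts and 3 in controls, and 0 fell. Of 8 bile duct and stellate cell markers 4 rose in runts and 3 in controls, and 0 fell. Of 7 gut and kidney epithelial markers 1 rose in runts and 1 fell in controls.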
